A study of Mus musculus with 8 samples.

Results

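A set of 10 genes that mark hepatic stellate cells at rest or in their activated state was followed in mouse liver. They are Lrat, Colec11, Reln, Hand2, Lhx2, Cygb, Ngfr, Acta2, Tagln and Des, chosen by gene symbol, and they make up 10 of the 33467 genes of the deposited FPKM table. The count matrix beside it holds 55401 genes. Each symbol had 1 row, so no duplicate had to be resolved.

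The livers came from wild-type C57BL/6J mice in 2 groups of 4. The Control group ate a standard diet. The DDC group ate a diet with 1% 3,5-diethoxycarbonyl-1,4-dihydrocollidine, a porphyrinogenic compound used to injure bile ducts, for 4 weeks. Whole liver RNA was sequenced after poly(A) selection, all 8 libraries carry the same batch label, and the age and sex of the animals were not used here.

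Stellate cells lie between the sinusoidal endothelium and the hepatocytes. At rest they store vitamin A as retinyl esters in lipid droplets. After injury they can lose these droplets, take on contractile proteins and lay down collagen, a state called the myofibroblast. Smooth muscle of vessels and bile ducts, portal fibroblasts and, for desmin, striated muscle carry some of the same contractile proteins. In RNA of a whole liver, fewer cells of a type and less RNA per cell cannot be told apart.

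The short sequence that serum response factor and its myocardin-related partners bind in contractile genes is the CArG box, made of CC, a core of 6 bases that are A or T, and GG. It was searched in the 250 bases before each RefSeq start site (GRCm38.p6), and since it reads the same on both strands 1 search covers both. A window was given for 8 of the 10 genes, Tagln and Cygb not being among them. No window of the 8 genes held the box without a mismatch, which 1.47% of 32851 windows of the same length did. With up to 1 mismatch in the core, 8.59% of all windows held it, and among the 8 genes Acta2 and Lrat did. The sequences below are shown because Acta2 and Des are contractile genes whose values differed widely within a group, and Lrat is the retinoid gene to which the others were compared. The capitals mark the box with 1 mismatch, and all sequences are from the minus strand except that of Des.
Acta2, chr19:34255438-34255467: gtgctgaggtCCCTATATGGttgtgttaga
Acta2, chr19:34255388-34255417: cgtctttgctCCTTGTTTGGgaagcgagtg
Lrat, chr3:82903975-82904224: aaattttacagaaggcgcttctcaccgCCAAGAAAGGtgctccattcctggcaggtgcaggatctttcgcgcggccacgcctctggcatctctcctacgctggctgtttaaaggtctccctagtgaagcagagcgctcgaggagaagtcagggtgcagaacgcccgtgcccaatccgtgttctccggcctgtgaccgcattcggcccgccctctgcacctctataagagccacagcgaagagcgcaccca
Des, chr1:75360042-75360291: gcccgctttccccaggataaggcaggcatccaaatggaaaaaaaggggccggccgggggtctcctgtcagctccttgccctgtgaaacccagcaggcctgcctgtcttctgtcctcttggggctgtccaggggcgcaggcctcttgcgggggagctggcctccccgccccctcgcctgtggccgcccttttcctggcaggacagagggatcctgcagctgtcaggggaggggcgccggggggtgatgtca

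The first Acta2 box lies 84 to 75 bases and the second 34 to 25 bases before the RefSeq start. In the annotation of the deposited table the Acta2 gene begins further out, at 34255590, so that both boxes fall in its first exon. The Lrat match lies 223 to 214 bases before the start. The Des window has no capitals, since it held no match at this threshold. These matches describe the letters of the windows only.

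Total counts per library ran from 61179103 to 81664058. Of these, the 10 genes took counts between 52 for Ngfr in Control 4 and 6021 for Reln in DDC 2. Levels are given as CPM, the count of a gene relative to all counts of its library, scaled by the trimmed mean of M-values (TMM). The TMM factors were 0.792 to 0.816 in the Control libraries and 1.21 to 1.27 in the DDC libraries, so scaling separated the groups. Summed over 8 hepatocyte markers, Control livers had 147110 to 173290 CPM and DDC livers 58115 to 73619 CPM. Its part in the results was not tested. The libraries of a group were not equally close. The chi-square of the counts per gene was 13.6 between Control 1 and Control 3 and 62.9 between Control 2 and Control 4, but 164 to 223 across these pairs. It was 94.4 to 105 between DDC 1 and each other DDC library and 16.8 to 24.0 among the other DDC libraries.

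On the DDC diet Cygb and Ngfr rose and Colec11 fell, while Lrat, Reln, Hand2, Lhx2, Acta2, Tagln and Des did not pass the test. The test was the quasi-likelihood test of edgeR with Benjamini-Hochberg adjustment over all 19535 genes tested, at an adjusted p of 0.05, and all 10 genes were tested. The 3 calls among 10 genes stand beside 56.8% of all tested genes called, made up of 30.2% higher and 26.6% lower. The groups did not overlap for the same 3 genes, against 52.6% of all tested genes, 26.9% higher and the rest lower. The median log2 fold change, DDC over Control, was 0.20 for the 10 genes and 0.07 for all tested genes. With library totals in place of TMM the median of all genes moved by 0.62 on the log2 scale, so each change is relative to the scaling named. With library totals 58.9% of all tested genes were called higher and 8.96% lower. Of the 10 genes Lrat, Reln, Hand2, Cygb and Ngfr were then called higher and 0 were called lower.

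**Figure D1:**
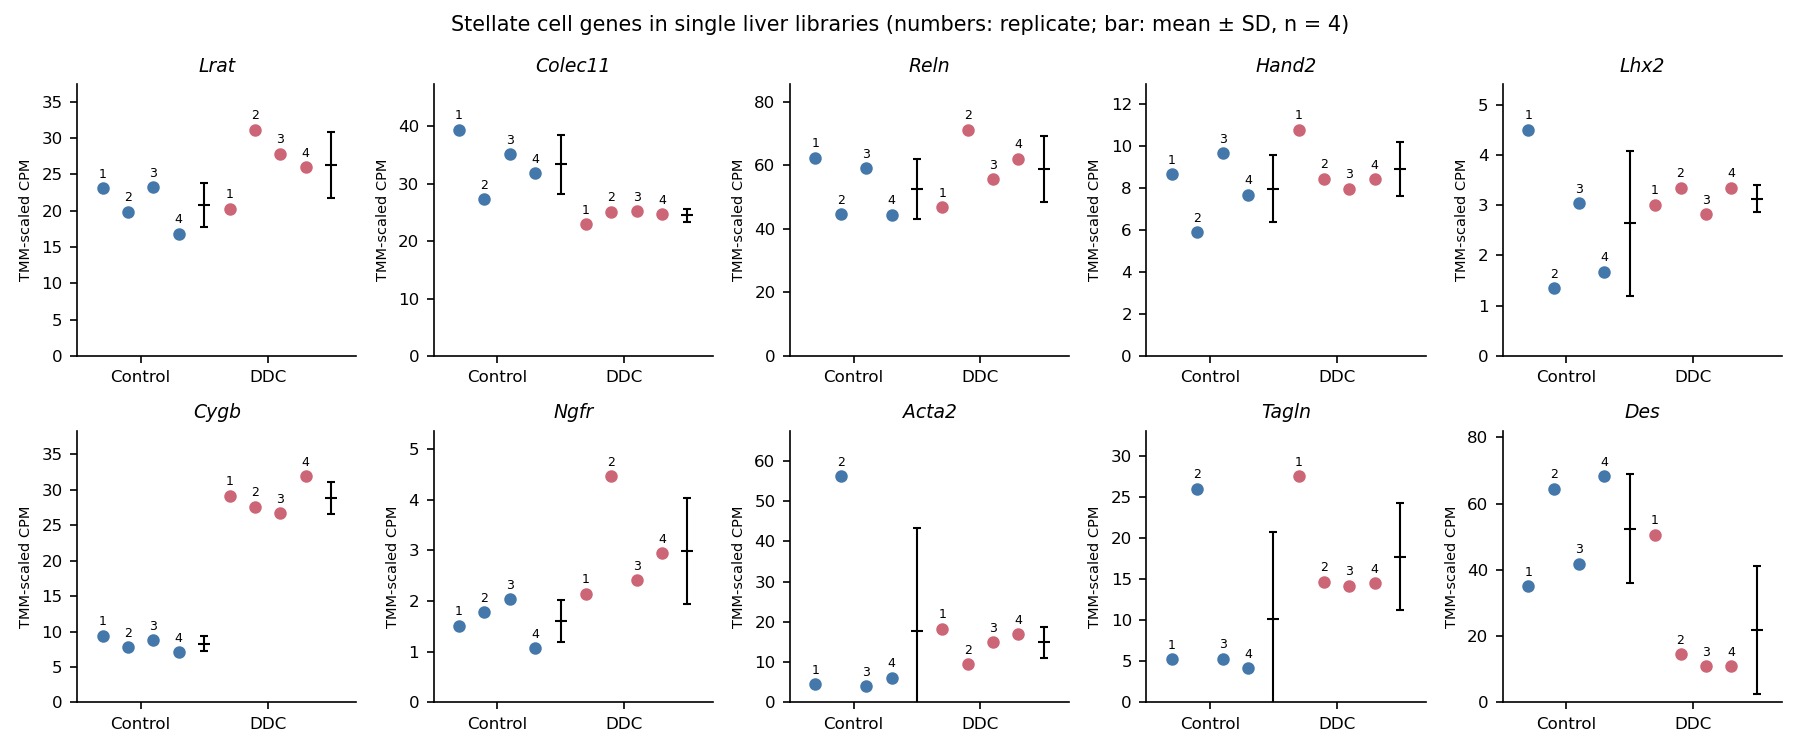
TMM-scaled CPM of each gene (vertical axes, from 0) in the 4 Control and 4 DDC libraries, with the replicate number above each point and the mean ± SD beside the points (SD bars of Acta2 and Tagln are cut at 0). Cygb separates the groups widely, from at most 9.43 CPM in Control to at least 26.7 CPM in DDC. Control 2 stands apart from the other Control libraries in Acta2 and Tagln, and DDC 1 from the other DDC libraries in Tagln and Des.

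The genes of the resting cell are given first, beginning with vitamin A storage and the proteins the cell secretes. Lrat (ENSMUSG00000028003, chr3:82892579-82903973) encodes lecithin retinol acyltransferase, which esterifies retinol for storage. In Control 1 to 4 it stood at 23.1, 19.8, 23.2 and 16.8 CPM, and in DDC 1 to 4 at 20.3, 31.1, 27.8 and 26.0 CPM. DDC 1 lay inside the Control range and the other DDC libraries above it. The log2 fold change was 0.34 (SE 0.144, 95% interval 0.02 to 0.67), with an edgeR adjusted p of 0.0675. Lrat passed as higher in 8 of 20 alternative analyses. Without DDC 1 the log2 fold change was 0.43 with an adjusted p of 0.0117. With all 8 libraries and upper-quartile scaling it was 0.41 with an edgeR adjusted p of 0.0374, and 3 of the 10 genes were then higher beside 32.3% of all genes.

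Colec11 (ENSMUSG00000036655, chr12:28594173-28623377) encodes collectin-11, a secreted lectin of the complement system. Its levels were 39.4, 27.3, 35.1 and 31.8 CPM in Control 1 to 4 and 22.9, 25.1, 25.2 and 24.7 CPM in DDC 1 to 4. Every DDC library was below every Control library. Colec11 fell by 0.45 on the log2 scale (SE 0.104, 1.37-fold, edgeR adjusted p 0.00483), from 33.4 ± 5.12 to 24.5 ± 1.06 CPM (mean ± SD, n = 4). With library totals in place of TMM the direction turned, to a log2 fold change of 0.18 with an adjusted p of 0.167. The deposited FPKM values also overlapped, at 13.3 to 18.9 in Control and 16.6 to 18.9 in DDC livers.

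Reln (ENSMUSG00000042453, chr5:21884454-22344702) encodes reelin, a large secreted glycoprotein. It had 62.5, 44.6, 59.2 and 44.5 CPM in Control 1 to 4 and 46.9, 71.3, 55.6 and 62.2 CPM in DDC 1 to 4. The groups overlapped, with Controls 2 and 4 and DDC 1 at the low end. The log2 fold change was 0.16 (SE 0.154, 95% interval -0.18 to 0.51, edgeR adjusted p 0.389).

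The transcription factors Hand2 and Lhx2 are known from stellate cell development and quiescence. Hand2 (ENSMUSG00000038193, chr8:57320983-57324633) had 8.63, 5.88, 9.65 and 7.66 CPM in Control 1 to 4 and 10.8, 8.44, 7.95 and 8.40 CPM in DDC 1 to 4. Its groups overlapped, and the log2 fold change of 0.16 (SE 0.166) had an edgeR adjusted p of 0.433. The gene Hand2os1 overlaps it by 3251 bases on the opposite strand with 493 to 1127 counts, and how much of either count belongs to the other was not tested.

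Lhx2 (ENSMUSG00000000247, chr2:38339281-38369733) is a LIM homeobox gene whose loss is known to activate stellate cells. It was low in every library, at 4.50, 1.35, 3.04 and 1.67 CPM in Control 1 to 4 and 3.01, 3.35, 2.82 and 3.34 CPM in DDC 1 to 4. The DDC libraries lay close together inside the wider Control range. The log2 fold change of 0.24 (SE 0.353, 95% interval -0.55 to 1.04) had an edgeR adjusted p of 0.573.

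Cygb (ENSMUSG00000020810, chr11:116645595-116654313) encodes cytoglobin, a heme protein used to tell stellate cells from portal fibroblasts. Control 1 to 4 had 9.43, 7.76, 8.77 and 7.10 CPM. DDC 1 to 4 had 29.2, 27.6, 26.7 and 31.9 CPM. The lowest DDC library was above the highest Control library by more than the range of either group. Cygb rose 3.49-fold, from 8.27 ± 1.04 to 28.9 ± 2.28 CPM (mean ± SD, n = 4), with a log2 fold change of 1.80 (SE 0.105, edgeR adjusted p 6.63e-07). It kept its direction and its call in all 20 alternative analyses, with log2 fold changes of 1.72 to 2.43.

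Ngfr (ENSMUSG00000000120, chr11:95568818-95587735) encodes the p75 neurotrophin receptor. Its levels were 1.51, 1.78, 2.04 and 1.07 CPM in Control 1 to 4 and 2.14, 4.46, 2.41 and 2.94 CPM in DDC 1 to 4. DDC 2 was the highest, and DDC 1 exceeded Control 3 by little. Ngfr rose 1.86-fold (log2 0.90, SE 0.301, edgeR adjusted p 0.0285). The call was lost when Control 1, Control 4, DDC 2 or DDC 4 was left out, with adjusted p-values of 0.0652, 0.0704, 0.0891 and 0.0545. Schwann cells of nerves are also known to carry Ngfr. Of 7 tested Schwann cell markers 4 rose and 0 fell (30.2% and 26.6% of all tested genes). The median log2 fold change of these markers was 1.49. Among them were the myelin gene Mbp (1.97, and 2.78 without Control 2) and Fabp7 (3.37), a fatty acid-binding protein. Their summed level was 9.66 to 15.9 CPM in Control and 39.4 to 48.8 CPM in DDC livers, with Sox10 at 0 to 0.217 CPM in all 8 libraries, and its part in the Ngfr result was not tested.

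For the contractile genes the range within a group exceeded the difference between the group means. Acta2 (ENSMUSG00000035783, chr19:34241090-34255590) encodes smooth muscle alpha-actin, the usual marker of the myofibroblast. In Control 1 to 4 it had 4.46, 56.2, 4.09 and 6.11 CPM and in DDC 1 to 4 it had 18.3, 9.42, 14.9 and 17.0 CPM. Control 2 was above every other library, and the other Control libraries were below every DDC library. The log2 fold change was -0.25 (SE 0.921, 95% interval -2.43 to 1.93) with an edgeR adjusted p of 0.831. Without Control 2 it was 1.60 (SE 0.246) with an adjusted p of 0.000673, and with library totals it was 0.37 with an adjusted p of 0.747.

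Tagln (ENSMUSG00000032085, chr9:45929619-45936058) encodes transgelin, an actin-binding protein of smooth muscle. It had 5.28, 26.0, 5.31 and 4.19 CPM in Control 1 to 4 and 27.5, 14.7, 14.2 and 14.5 CPM in DDC 1 to 4. Control 2 and DDC 1 stood apart upward, each in its own group. The log2 fold change of 0.80 (SE 0.635, 95% interval -0.69 to 2.28) had an edgeR adjusted p of 0.316. Without Control 2 it was 1.84 (SE 0.266) with an adjusted p of 0.000503. The antisense gene Gm48529 covers 3627 bases of Tagln with 341 to 714 counts, and its part in the Tagln counts was not tested.

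Des (ENSMUSG00000026208, chr1:75360329-75368579) encodes desmin, an intermediate filament protein of muscle and of rodent stellate cells. Its levels were 35.0, 64.6, 41.9 and 68.3 CPM in Control 1 to 4. They were 50.6, 14.5, 10.9 and 11.0 CPM in DDC 1 to 4. DDC 1 lay inside the Control range and the other DDC libraries far below it. The log2 fold change was -1.27 (SE 0.573, 95% interval -2.62 to 0.08, edgeR adjusted p 0.0959). Without DDC 1 it was -2.13 (SE 0.279) with an adjusted p of 0.000483, and Des was then called lower. Of the 10 genes, 4 were called higher and 1 lower without Control 2, beside 28.3% and 25.3% of all genes, and 3 higher and 2 lower without DDC 1, beside 30.7% and 27.3%. With Control 2 and DDC 1 both left out, 5 of the 10 genes were called higher (32.7% of all genes) and 2 lower (27.4%). The genes that joined the calls were Lrat, Acta2, Tagln and Des.

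**Figure D2:**
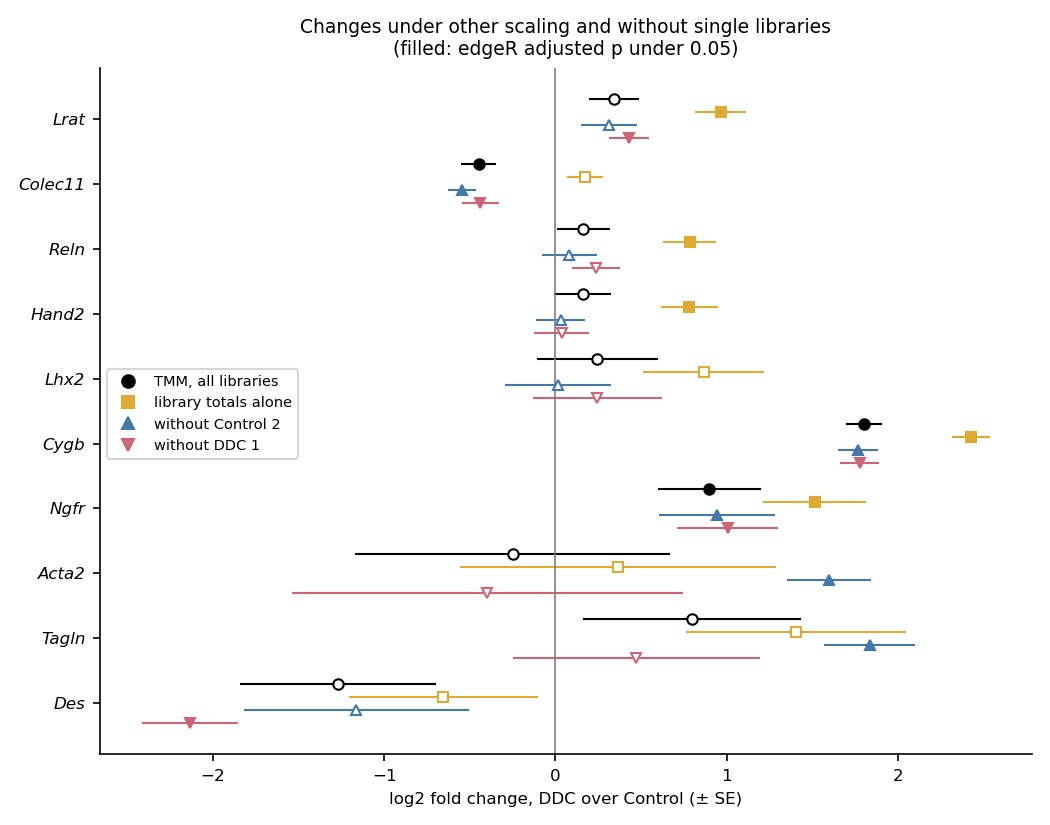
Log2 fold change, DDC over Control, with its SE (horizontal axis) for each gene, with TMM and all libraries, with library totals alone, without Control 2 and without DDC 1; filled symbols passed an edgeR adjusted p of 0.05. Cygb and Ngfr are filled and positive in all 4 settings, whereas Acta2 moves from -0.25 to 1.60 without Control 2 and Des from -1.27 to -2.13 without DDC 1.

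Markers of other tissues moved with these libraries. Among 18 smooth muscle contractile genes 3 rose, 2 fell and 13 did not pass, with a median log2 fold change of -0.60. Beside them 30.2% of all tested genes rose and 26.6% fell. The smooth muscle myosin gene Myh11 had 4.52, 51.3, 5.75 and 4.61 CPM in Control 1 to 4 and 2.10 to 7.94 CPM in DDC livers, and calponin Cnn1 had 13.8 CPM in Control 2 and at most 0.194 CPM in the other Control libraries. The enteric actin Actg2 reached 17.0 CPM in Control 2 against 1.26 to 1.79 CPM in Controls 1, 3 and 4. Of the 17 genes of the list that reached 1 CPM in a Control library, 10 were highest in Control 2 and the other 7 in Control 4. The sum of the list was 463, 683, 509 and 685 CPM in Control 1 to 4. In it Tpm1 had 125, 180, 143 and 217 CPM and Pln 67.1, 97.3, 90.7 and 146 CPM. The high sum of Control 4 thus came without high Myh11 or Actg2, which were near their levels in Controls 1 and 3. Pln was high in Control 4 and DDC 1, as were the striated muscle markers given below. Whether the sum of the list comes from smooth muscle alone was not tested. Without Control 2, 5 of the list passed as higher and 1 as lower (28.3% and 25.3% of all tested genes). With library totals 4 and 0 passed (58.9% and 8.96% of all tested genes).

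Control 2 was also high in duct and gallbladder epithelium markers. Their summed level was 37.3, 192, 34.5 and 24.3 CPM in Control 1 to 4 and 143 to 233 CPM in DDC livers. Muc1, a mucin of duct epithelium, had 1.49, 53.7, 1.41 and 2.46 CPM in Control 1 to 4, and the mucosal peptide gene Tff2 had 6.80 CPM in Control 2 and 0 CPM in Controls 1, 3 and 4. Of 12 such genes 6 rose and 0 fell (30.2% and 26.6% of all tested genes), and 11 rose when Control 2 was left out (28.3%). Cftr, the chloride channel of the duct, rose with a log2 fold change of 3.88, and Sox9, Krt7 and Epcam rose by 2.05, 1.82 and 2.83. Without Control 2 the values of Krt7 and Epcam were 2.45 and 3.88. The part of these cells in the Acta2 and Tagln values was not tested.

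Des moved with striated muscle markers. The summed level of these markers was 933, 1249, 1106 and 1925 CPM in Control 1 to 4 and 1296, 243, 240 and 211 CPM in DDC 1 to 4. The cardiac myosin gene Myh6 alone had 428, 567, 508 and 883 CPM in Controls and 604, 117, 106 and 90.7 CPM in DDC livers. Its log2 fold change of -1.38 had an edgeR adjusted p of 0.128. The skeletal myosin gene Myh1 was at 0 CPM in every Control library and at most 0.0652 CPM in DDC livers. Of 15 tested markers 1 rose and 0 fell (30.2% and 26.6% of all tested genes), and without DDC 1 the number called lower was 12 (27.3%). The part of these genes in the Des values was not tested.

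**Figure D3:**
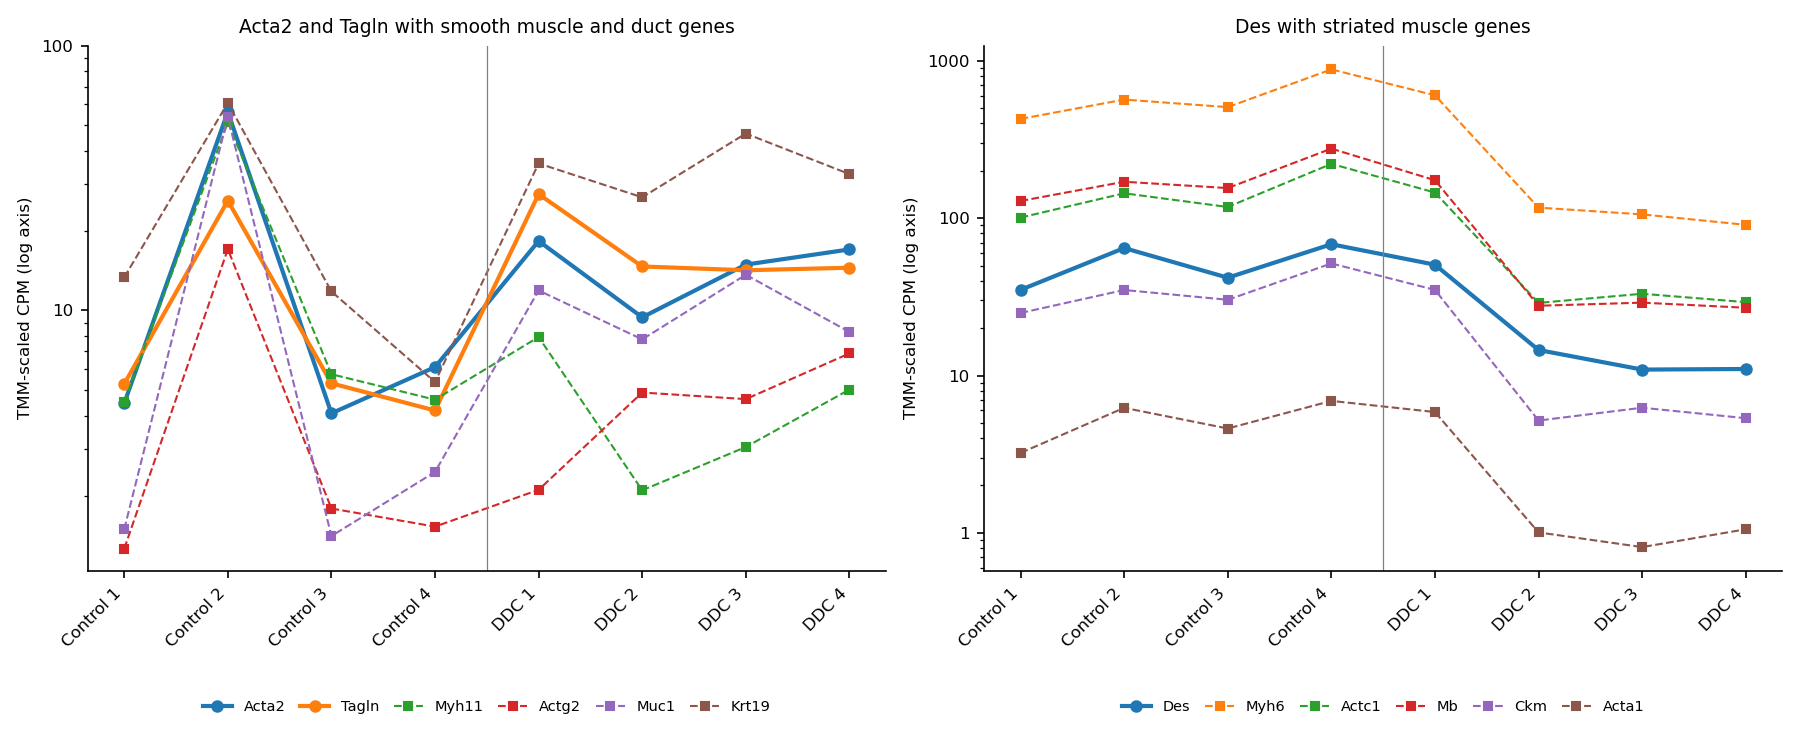
TMM-scaled CPM (log axes) of Acta2 and Tagln with smooth muscle and duct genes (left) and of Des with striated muscle genes (right) in each library; dashed lines are genes other than the 10 and lines only join the values of 1 gene. Acta2, Tagln, Myh11, Actg2, Muc1 and Krt19 peak in Control 2 among the Control libraries, and Des and the striated muscle genes are high in the Control libraries and DDC 1.

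Ratios of 2 genes within a library do not depend on how libraries are scaled. They were chosen after the values were seen and are given as descriptions with no test. Cygb over Lrat was 0.408, 0.391, 0.378 and 0.422 in Control 1 to 4 and 1.44, 0.888, 0.959 and 1.23 in DDC 1 to 4, so the DDC libraries were all higher. Colec11 over Lrat was 1.38 to 1.89 in Control and 0.806 to 1.13 in DDC livers, all lower in DDC. Of the 9 genes set over Lrat, these were the 2 whose groups did not overlap. Acta2 over Myh11 was 0.712 to 1.33 in Control, Control 2 included at 1.10, and 2.30 to 4.88 in DDC livers. Tagln over Myh11 was 0.507 to 1.17 and 2.88 to 7.00. Actg2 over Myh11 was 0.279 to 0.332 in Control livers and 0.265, 2.34, 1.52 and 1.37 in DDC 1 to 4, so Actg2 also exceeded the Control range in DDC 2 to 4. Des over Myh11 overlapped, at 1.26 to 14.8 in Control and 2.19 to 6.93 in DDC livers. Over Muc1 the groups overlapped, for Acta2 at 1.05 to 2.99 in Control and 1.09 to 2.05 in DDC livers and for Tagln at 0.484 to 3.77 and 1.04 to 2.31. Des per 100 CPM of Myh6 was 7.74 to 11.4 in Control and 8.38 to 12.4 in DDC livers, and these ranges overlapped.

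**Figure D4:**
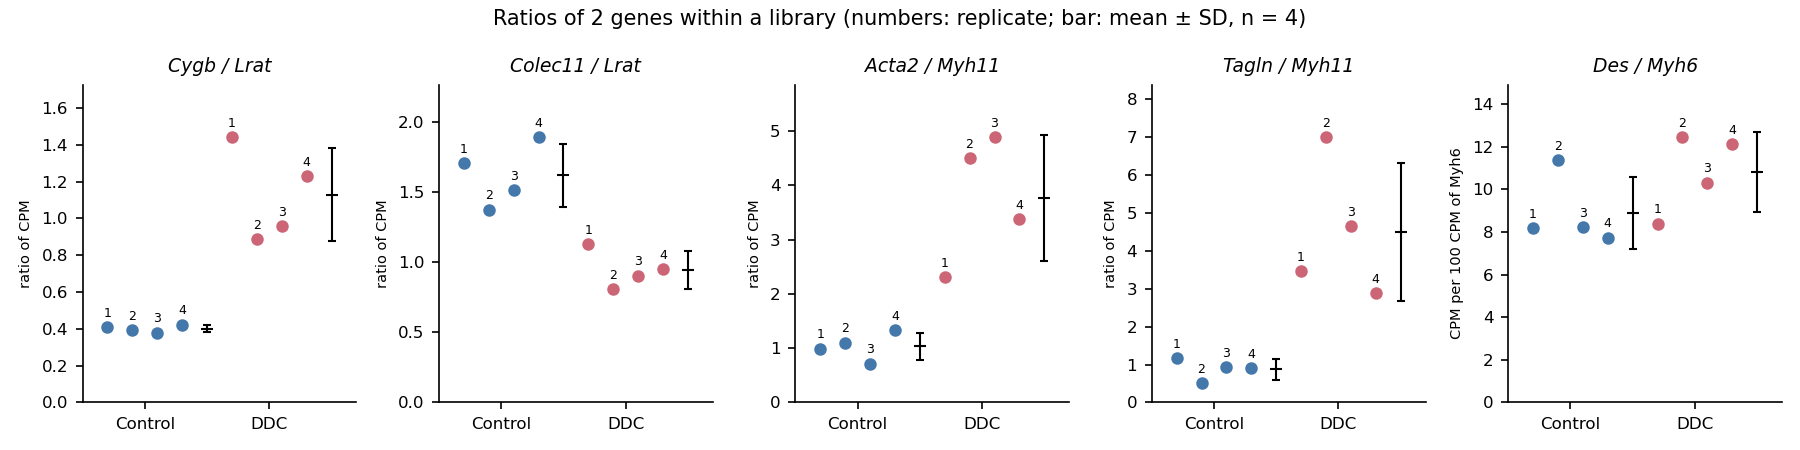
Ratio of the CPM of 2 genes in each library (vertical axes, from 0; Des is given per 100 CPM of Myh6), with replicate numbers above the points and mean ± SD, n = 4. Cygb over Lrat, Acta2 over Myh11 and Tagln over Myh11 are higher in every DDC library, Colec11 over Lrat is lower in every DDC library, and Des over Myh6 overlaps.

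Levels of different genes can be ordered only per length, in FPKM. In Control livers the mean FPKM fell in the order Colec11 (16.0), Des (10.9), Acta2 (6.34), Tagln (4.01), Lrat (3.02), Cygb (2.76), Hand2 (2.63), Reln (1.73), Lhx2 (0.462) and Ngfr (0.360). Each neighbouring pair overlapped in range except Reln and Lhx2. The places of Acta2 and Tagln rested on Control 2. Without it the order after Des was Lrat (3.05), Hand2 (2.85), Cygb (2.80), Tagln (1.92), Reln (1.81) and Acta2 (1.72). In DDC livers it was Colec11 (18.0), Cygb (14.8), Tagln (10.6), Acta2 (8.12), Des (6.87), Lrat (5.87), Hand2 (4.51), Reln (2.96), Ngfr (1.03) and Lhx2 (0.846). Colec11 and Cygb, Hand2 and Reln, and Reln and Ngfr were separated there, and the other neighbours overlapped. Without DDC 1 the mean of Des was 3.86, below Lrat and Hand2.

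A list of 20 further stellate cell genes gave 12 that rose, 4 that fell and 4 that did not pass, with a median log2 fold change of 0.66. Beside this list 30.2% of all tested genes rose and 26.6% fell. Pdgfrb, the receptor for platelet-derived growth factor, rose 3.43-fold (edgeR adjusted p 3.43e-06). Adamtsl2, a secreted matrix protein, rose 3.16-fold, and Nes, an intermediate filament protein, 3.32-fold. Against most of the list Angptl6, an angiopoietin-like secreted protein, fell 2.92-fold, from 11.0 ± 2.56 to 3.78 ± 0.450 CPM.

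Genes of retinoid storage and metabolism were split, with 9 of 20 tested higher and 8 lower (30.2% and 26.6% of all tested genes). The median log2 fold change of the list was 0.14. The retinoic acid synthases Aldh1a2 and Aldh1a3 rose by 3.70 and 3.20 on the log2 scale, to 7.33 ± 1.29 and 6.94 ± 1.78 CPM. The far more abundant Aldh1a1 fell 1.66-fold, from 1022 ± 89.7 to 617 ± 49.8 CPM (edgeR adjusted p 6.29e-05). With library totals the log2 fold change of Aldh1a1 was -0.10, with an adjusted p of 0.232. Cyp26b1, which degrades retinoic acid, fell 3.19-fold from 19.3 ± 7.72 to 6.05 ± 1.06 CPM. The related Cyp26a1 did not pass, at 23.2 ± 5.97 and 27.3 ± 6.88 CPM (edgeR adjusted p 0.412). With library totals 14 of the list passed as higher and 3 as lower (58.9% and 8.96% of all tested genes).

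Among 16 regulators of stellate activation 10 rose and 3 fell, with a median of 0.86 (with library totals, 14 and 1). The shares of all tested genes were 30.2% higher and 26.6% lower, and 58.9% and 8.96% with library totals. Pdgfb, the ligand of the receptor named above, rose 6.91-fold, and Tgfb1, the main fibrogenic cytokine, 4.52-fold from 7.40 ± 1.27 to 33.5 ± 1.06 CPM. The zinc finger gene Klf6 rose 3.65-fold, and Vdr, the vitamin D receptor, 4.78-fold from a level of 0.337 CPM (8.75-fold without Control 2). Nr1h4, the bile acid receptor, fell 1.97-fold from 138 ± 6.53 to 70.0 ± 1.57 CPM.

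Of 20 genes whose products bind those of the 10 genes, 10 rose and 5 fell (30.2% and 26.6% of all tested genes), with a median of 0.20. The neurotrophin partners of Ngfr moved both ways. The receptor Ntrk2 rose 8.45-fold to 10.8 ± 5.93 CPM. Ntf3, neurotrophin-3, fell from 4.94 ± 3.43 to 1.19 ± 0.123 CPM. Ntf3 was 7.84 and 7.90 CPM in Controls 1 and 3 and 1.31 and 2.73 CPM in Controls 2 and 4, so that its groups overlapped.

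Myofibroblast matrix genes rose almost throughout, with 17 of 18 higher, 0 lower and a median log2 fold change of 2.32. These counts, and those of portal fibroblasts below, stand beside 30.2% of all tested genes higher and 26.6% lower. Timp1, an inhibitor of matrix metalloproteinases, rose 16.9-fold and Col1a1, a chain of type I collagen, 16.2-fold from 10.7 ± 3.07 to 174 ± 33.6 CPM. Col3a1, the chain of type III collagen, rose 10.2-fold and the crosslinking enzyme Lox 8.85-fold. The exception was Fap, a fibroblast surface protease named here after its values were seen, with a log2 fold change of -0.05. Portal fibroblasts also make collagen, and their markers gave 9 of 14 higher and 0 lower, with a median of 1.00. Entpd2, an ectonucleotidase of portal fibroblasts, rose 2.60-fold, Eln, elastin, 3.30-fold and Il33 3.91-fold. The summed level of the portal fibroblast list was 92.0 to 98.4 CPM in Controls 1, 3 and 4, 212 CPM in Control 2 and 173 to 233 CPM in DDC livers. Most of this sum was Gas6, at 55.6 to 61.6 CPM in Controls 1, 3 and 4 and 166 CPM in Control 2. Gas6 had 103 to 138 CPM in DDC livers and did not pass (edgeR adjusted p 0.254). The part of portal fibroblasts in the results on the 10 genes was not tested.

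Lymphatic endothelium markers gave 3 of 6 higher and 1 lower (4 and 0 with library totals), mesothelium markers 3 of 6 higher and 0 lower, and hepatocyte markers 0 of 8 higher and 8 lower. The median log2 fold changes were 0.85, 1.03 and -1.27. Beside these lists 30.2% of all tested genes were higher and 26.6% lower, and 58.9% and 8.96% with library totals. Pdpn, podoplanin, rose by 3.56 (4.27 without Control 2), Msln, mesothelin, by 1.90 on the log2 scale, and Cyp2e1, a hepatocyte cytochrome, fell 8.48-fold. Of the lymphatic list Ccl21a and Mmrn1 did not pass (edgeR adjusted p 0.350 and 0.642), and Prox1 was lower, at 141 CPM in Control and 109 CPM in DDC livers.

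**Figure D5:**
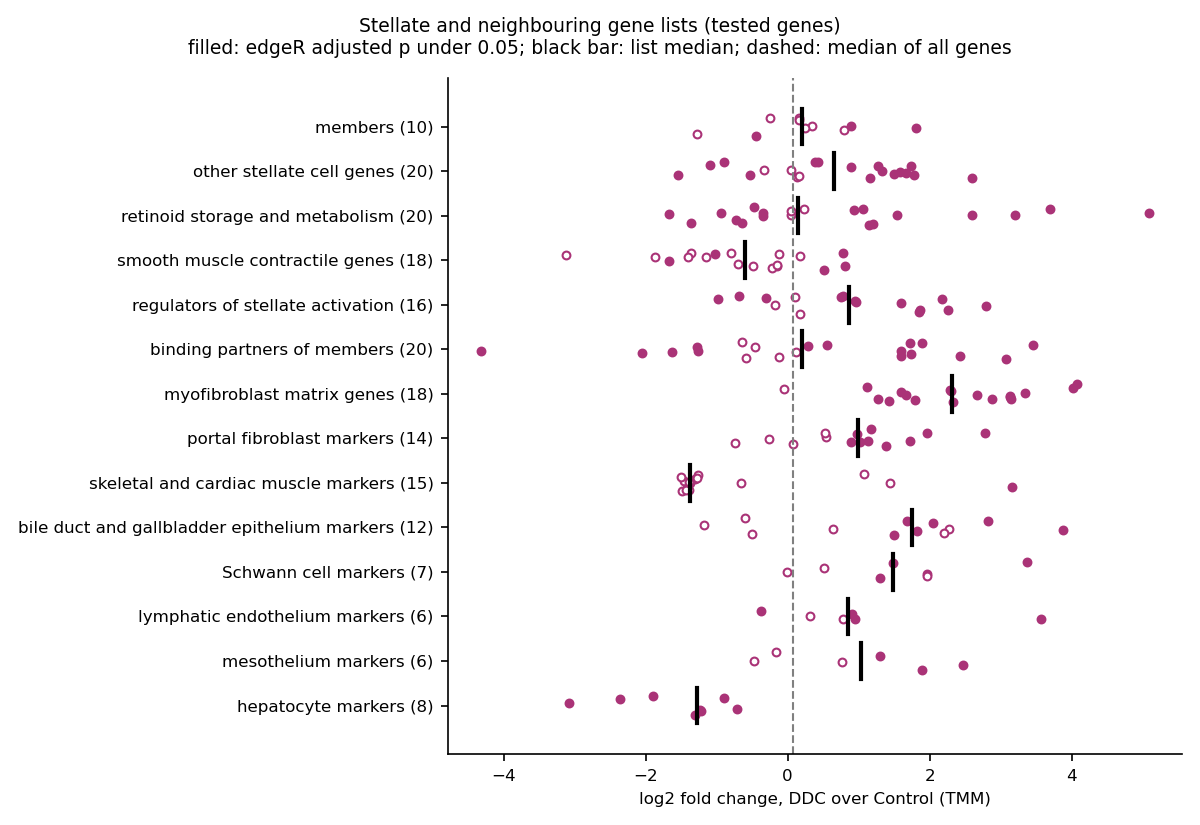
Log2 fold change, DDC over Control with TMM scaling (horizontal axis), of every tested gene of each list (vertical axis, number tested in brackets); filled points passed an edgeR adjusted p of 0.05, black bars are list medians and the dashed line is the median of all tested genes, 0.07. The myofibroblast matrix genes lie almost all to the right, the hepatocyte markers all to the left, and the 10 stellate genes on both sides.

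The genes with the most similar values over the 8 libraries differed from gene to gene. Likeness was Pearson's r of log2(CPM + 1) among 13282 genes of at least 1 CPM on average, given as a description over 8 libraries that share 2 groups. For Cygb the 5 nearest were Slamf7, Esyt1, Ccdc80, Col15a1 and Ostf1, with r of 0.998 to 0.997. For Acta2 they were Kcnq1 (0.982), Muc1 (0.979), Zfp239, Cd200 and Cttnbp2. For Tagln they were Lamb1 (0.981), Cemip2, Slc52a3, Prr15l and Car2. For Des they were Acta1 (0.991), Adprhl1, Casq2, Cyp4a31 and Plin4. For Lrat the nearest was Rimklb (0.971), for Reln Avpi1 (0.969), for Hand2 Prkar1a (0.965), for Lhx2 Angptl2 (0.996), for Ngfr Cnp (0.949) and for Colec11 Eif3e (0.992).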

How the data were processed

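Liver RNA of 4 Control and 4 DDC mice was compared, grouped by the sample titles. Per the labels' protocols, second strands were made with dUTP and libraries were sequenced as paired ends. The deposited counts are whole numbers per gene, and the deposited FPKM values are the authors' counts scaled by gene length and depth. The counts of the 10 genes were equal in both tables. The submitters' processing notes name HISAT2, StringTie, cutadapt, FastQC and DESeq2, and the builds GRCm38 and mm10. The strand setting of the counting is not given in the sources, so an overlapping gene on the other strand can add reads.

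The counts of all 8 libraries were fitted with edgeR 4.0.16 in R 4.3.3 (TMM, filterByExpr, robust quasi-likelihood test, no covariate, two-sided), with Benjamini-Hochberg adjustment at 0.05. The fit was also run on repeated sets of simulated data, pooled. Pooling was chosen after a set had gone over the limit for false calls. For this reason nothing about the calls or the scaling of these libraries is drawn from that check. Nothing in the labels says more of the replicates than their numbers, so p-values measure the spread between these libraries. Depth was 61179103 to 81664058 counts, and for all 10 genes counting error was below the SE of the log2 fold change (3.38% to 36.1% of it).

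The 10 genes and the 13 other lists were chosen with earlier results of these data known. Named from each list are up to 4 called genes of at least 1 CPM in the higher group with the largest change and the largest change against the majority. Where none was called the most abundant gene is named. From the lists of contractile, muscle, duct, Schwann, lymphatic and mesothelium genes those with the largest ratio of highest to second highest Control are added, and the 5 genes nearest each of the 10 by Pearson's r. Of the resulting genes the text names a part, and some are not reported here. Other named genes were chosen after their values were seen. Of 198 listed genes, 4 (Crabp1, Myh2, Myh4 and Tnnc2) were not used here.

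Alternatives were other scalings and filters, DESeq2 1.42.0, limma 3.58.1 on voom weights and on log2(FPKM + 0.1) and log2(FPKM + 1), a replicate block, and each library left out in turn. Leaving out 2 libraries together was added after seeing the data.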

Additional observations from a re-analysis of the deposited data

Results flagged for a closer look

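In a group of 4 libraries, 1 library was marked when its gap to the nearest other was large against the range of the group (Dixon's 95% critical value). This was run on 46 groups, 20 of them of the 10 genes, and 9 were marked. Chance marks about 1 in 20 groups. Groups of the same libraries are not independent, and that contractile genes differ among the Control libraries was known beforehand, so these marks describe the libraries and are no test.

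Des was marked in DDC 1, at 50.6 CPM against 10.9 to 14.5 CPM in the other DDC libraries. Acta2 was marked in Control 2, at 56.2 CPM against 4.09 to 6.11 CPM in the other Control libraries. Tagln was marked in both groups, in Control 2 at 26.0 CPM and in DDC 1 at 27.5 CPM. The other 7 genes, Lrat, Colec11, Reln, Hand2, Lhx2, Cygb and Ngfr, had no marked library.

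Sums over lists were marked in the same libraries. In DDC 1 these were smooth muscle contractile genes at 693 CPM and skeletal and cardiac muscle markers at 1296 CPM. Within the smooth muscle sum Tpm1 was 236 CPM in DDC 1 against 121 to 129 CPM in the other DDC libraries. Pln was 100 CPM against 15.0 to 18.8 CPM, and Myh11 7.94 CPM against 2.10 to 5.03 CPM. In Control 2 the marked sums were portal fibroblast markers at 212 CPM, duct and gallbladder markers at 192 CPM and Schwann cell markers at 15.9 CPM. Gas6 alone was 166 CPM of the portal fibroblast sum in Control 2. No cause was tested.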

How the results depend on the processing

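Cygb kept its direction and call in 20 of 20 alternatives. Scaling moved most of the others. With library totals 11505 genes were called higher and 1750 lower, against 5893 and 5205, the 10 genes gave 5 and 0, and 19 listed genes were lower, against 31. Acta2 (0.37) and Colec11 (0.18) reversed, as they did with limma on log2(FPKM + 0.1), at 1.27 and 0.18, and on log2(FPKM + 1), at 0.97 and 0.17. Those fits called 11976 and 11987 genes higher and 1826 and 1815 lower, 7 and 0 of the 10 genes in both, and 18 listed genes lower in both. Voom gave 2 lower of the 10 genes (27.3% of all genes), with Acta2 at 0.70.

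Deviations from the group means correlated at r of -0.26, -0.23, 0.03 and -0.09 for same-numbered libraries and at -0.15 to 0.23 for the other pairs. Deviations within a group depend on each other, so these values cannot settle whether the numbers pair libraries. The replicate block gave 1 higher of the 10 genes (24.6% of all genes), with Acta2 at 0.91 and Ngfr at an adjusted p of 0.0579.

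Leaving out 1 library gave 1 to 4 of the 10 genes higher, 1 to 2 lower, and 28 to 51 listed genes lower. Of all tested genes 25.4% to 30.7% were then higher and 23.2% to 27.3% lower. The 4 higher of the 10 genes came without Control 2, and the 2 lower and the 51 listed genes without DDC 1. Acta2 ranged from -0.59 to 1.60. Without Control 2 and DDC 1 together the 10 genes gave 5 higher and 2 lower (32.7% and 27.4% of all genes). Listed genes then gave 48 lower, Acta2 was 1.48 and Hand2 -0.077. Without Control 4 and DDC 1 together 2 of the 10 genes and 47 listed genes were lower (26.3% of all genes). The causes were not tested, except that each of these fits has fewer libraries.

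Of 86 listed genes called higher, 75 kept direction and call in every alternative and 0 reversed. Of 31 called lower, 18 kept both and 6 reversed, all 6 with library totals. DESeq2 gave no adjusted p for Acta2. Counting error was at most 36.1% of the SE for any of the 10 genes, so depth was the smaller part of it.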

Other observations

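The Control libraries fell in an order that many of the 10 genes shared. Controls 1 and 3 were both above Controls 2 and 4 for 6 of the 10 genes, for 14 of the 20 other stellate cell genes and for 25.9% of all tested genes. The reverse held for 2 of the 10 genes, 1 of the 20 and 21.9% of all tested genes. It held for 10 of 15 skeletal and cardiac muscle markers and 9 of 18 smooth muscle contractile genes, of which 0 and 0 had Controls 1 and 3 above. These counts came from values already seen and carry no test.

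Among the DDC libraries, DDC 1 was above every other for 11 of 11 skeletal and cardiac muscle markers that reached 1 CPM in a Control library, for 13 of 17 smooth muscle contractile genes and for 4 of the 10 stellate genes. It was above every other for 1 of 12 duct and gallbladder markers. Within the smooth muscle list Pln and Casq2 had 100 and 14.8 CPM in DDC 1, against at most 18.8 and 3.74 CPM in the other DDC libraries. Actg2 was lowest in DDC 1, at 2.10 against 4.63 to 6.88 CPM. Of the stellate genes counted, Acta2 was above by little, at 18.3 against at most 17.0 CPM. No such count was made over all tested genes, and these counts carry no test.

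Vitamin A genes of other liver cells were among those lower in DDC livers. Rbp4, the plasma carrier of retinol that hepatocytes secrete, named after its values were seen, fell 2.58-fold from 3317 ± 294 to 1286 ± 31.0 CPM.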
